A study of Danio rerio with 18 samples.

Results

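Genes of pre-mRNA splicing were followed through 6 groups of cells sorted from zebrafish embryos. They were chosen by name: a gene belonged when its symbol began with srsf, tra2, hnrnp, snrp, lsm, sf3a, sf3b, u2af, prpf, sart or rbm in the form used for splicing factors and their relatives. This gave 103 genes of the 8793 with a symbol on the array, represented by 131 probe sets, and the brightest probe set stood for each gene. Of the 103 genes, 101 passed the filter on low values. The other 2, rbm33b and rbm44, were each above the filter on 1 array of 18 and were not tested. A selection by name also takes in relatives that work elsewhere: lsm1 acts in cytoplasmic mRNA decay, lsm11 in the processing of histone mRNA ends, and rbm28 is related to a yeast protein of ribosome assembly.

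The embryos had 14 to 16 somites and were raised at 28 °C, and the cells were sorted by green fluorescent protein (GFP) from microRNA reporter lines. The first pair of groups came from a wild-type miR-206 reporter line, GFP-positive muscle cells and the GFP-negative rest. The next came from Dicer mutants that carry a miR-124 reporter, GFP-positive cells of the central nervous system (CNS) and the GFP-negative rest, and the last from a wild-type miR-124 reporter line sorted in the same way. Each group had 3 arrays, which the labels call biological replicates, made from 100 ng of total RNA. The labels name the mutant line MZ without spelling it out, and no source used here gives the allele or the reporters' promoters. All 3 lines carry a reporter. Mutant and wild-type cells came from separate lines, so other differences between the lines cannot be told apart from the loss of Dicer, the nuclease which makes mature microRNAs from their hairpin precursors.

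Splicing removes introns from pre-mRNA. The spliceosome is built from small nuclear ribonucleoproteins (snRNPs): U1 and U2 bind the 5′ splice site and the branch site, and the tri-snRNP of U4, U6 and U5 then joins before catalysis. Sm proteins form the ring on the U1, U2, U4 and U5 RNAs and LSm proteins the one on U6, while SR proteins and hnRNP proteins bind the transcript and favour or hinder the use of particular exons. The core spliceosome is used in all cells. Splicing in nerve and muscle is further shaped by regulators that those tissues express, such as Rbfox, Celf, Nova, Ptbp and Elavl proteins.

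The sorted groups carried the muscle or neural markers of their labels. The summed intensity of 13 muscle markers was 15344 to 20039 in muscle cells and 747 to 1125 in the rest of that line, and that of 12 neural markers was 8545 to 9996 in mutant CNS cells, 3046 to 4469 in the mutant rest, 9178 to 9962 in wild-type CNS cells and 2413 to 2965 in the wild-type rest. Probe-set intensity of dicer1 was 110.1, 209 and 101 in mutant CNS cells, against 224, 259 and 252 in wild-type CNS cells (-0.81 ± 0.26 SE on the log2 scale, adjusted p = 0.022). In the GFP-negative cells it was 92.1, 117 and 71.4 in the mutant and 187, 291 and 116 in the wild type (-0.90 ± 0.26 SE, adjusted p = 0.0117). No source used here says where the probe set lies relative to the mutation. A pair of arrays stood apart as whole arrays: in replicate 2 of the wild-type miR-124 rest 25 of the 101 genes, and in replicate 1 of the miR-206 rest 21, lay over 0.5 on the log2 scale from the mean of the other arrays of their group, as did 19.5% and 23.6% of all features. In the other 16 arrays the count of splicing genes was 0 to 15. Where a named gene loses its call or moves by over 1.5 times without one of these 2 arrays, its value without that array is given. The calls of dicer1 were lost without replicate 2 (-0.60) of the wild-type rest, without replicate 3 of either mutant fraction, and in CNS cells also without mutant replicate 1 or wild-type replicate 2 or 3. In such bulk samples, a smaller number of cells of a type and less RNA per cell cannot be told apart.

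The splicing genes were bright and varied little between the groups. Their median intensity over all arrays was 548, against 108 for all 9548 features tested. The highest group mean exceeded the lowest by a median of 0.56 on the log2 scale (1.47-fold), against 0.85 (1.81-fold) for all features. A range of at least 1 on that scale was found for 14 of the 101 genes (13.9%), against 40.1% of all features. These 14 were rbm47, rbm25a, lsm1, u2af1, srsf1b, lsm14aa, sf3b4, prpf4ba, rbm25b, lsm12b, srsf6b, snrpb, hnrnph1 and hnrnpua, and only rbm47 (3.14) exceeded 2. The flattest was rbm7, an adaptor of the nuclear exosome, with a range of 0.06.

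The order of the groups was not even. The highest mean of a gene lay in wild-type CNS cells for 33 of the 101 genes (32.7%, against 15.9% of all features). It lay in the miR-206 rest for 15 (14.9%, against 8.06%). For muscle cells (25, or 24.8%, against 24.6%) and mutant CNS cells (23, or 22.8%, against 24.2%) the shares were near those of all features. It lay in the mutant rest for 3 genes (2.97%, against 14.1%) and in the wild-type miR-124 rest for 2 (1.98%, against 13.1%). The lowest mean lay in the mutant rest for 36 genes (35.6%, against 12.8% of all features) and in the wild-type miR-124 rest for 28 (27.7%, against 9.33%). The 95th percentile of intensity on an array was 850 to 868 in the mutant rest and 872 to 898 in the wild-type miR-124 rest. It was 860 to 884 in mutant CNS cells and 901 to 944 in the miR-206 rest. In wild-type CNS cells it was 921 to 938, and in muscle cells 943 to 974. Most splicing genes were bright, and the part of these levels in the order of the groups was not tested.

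**Figure D1:**
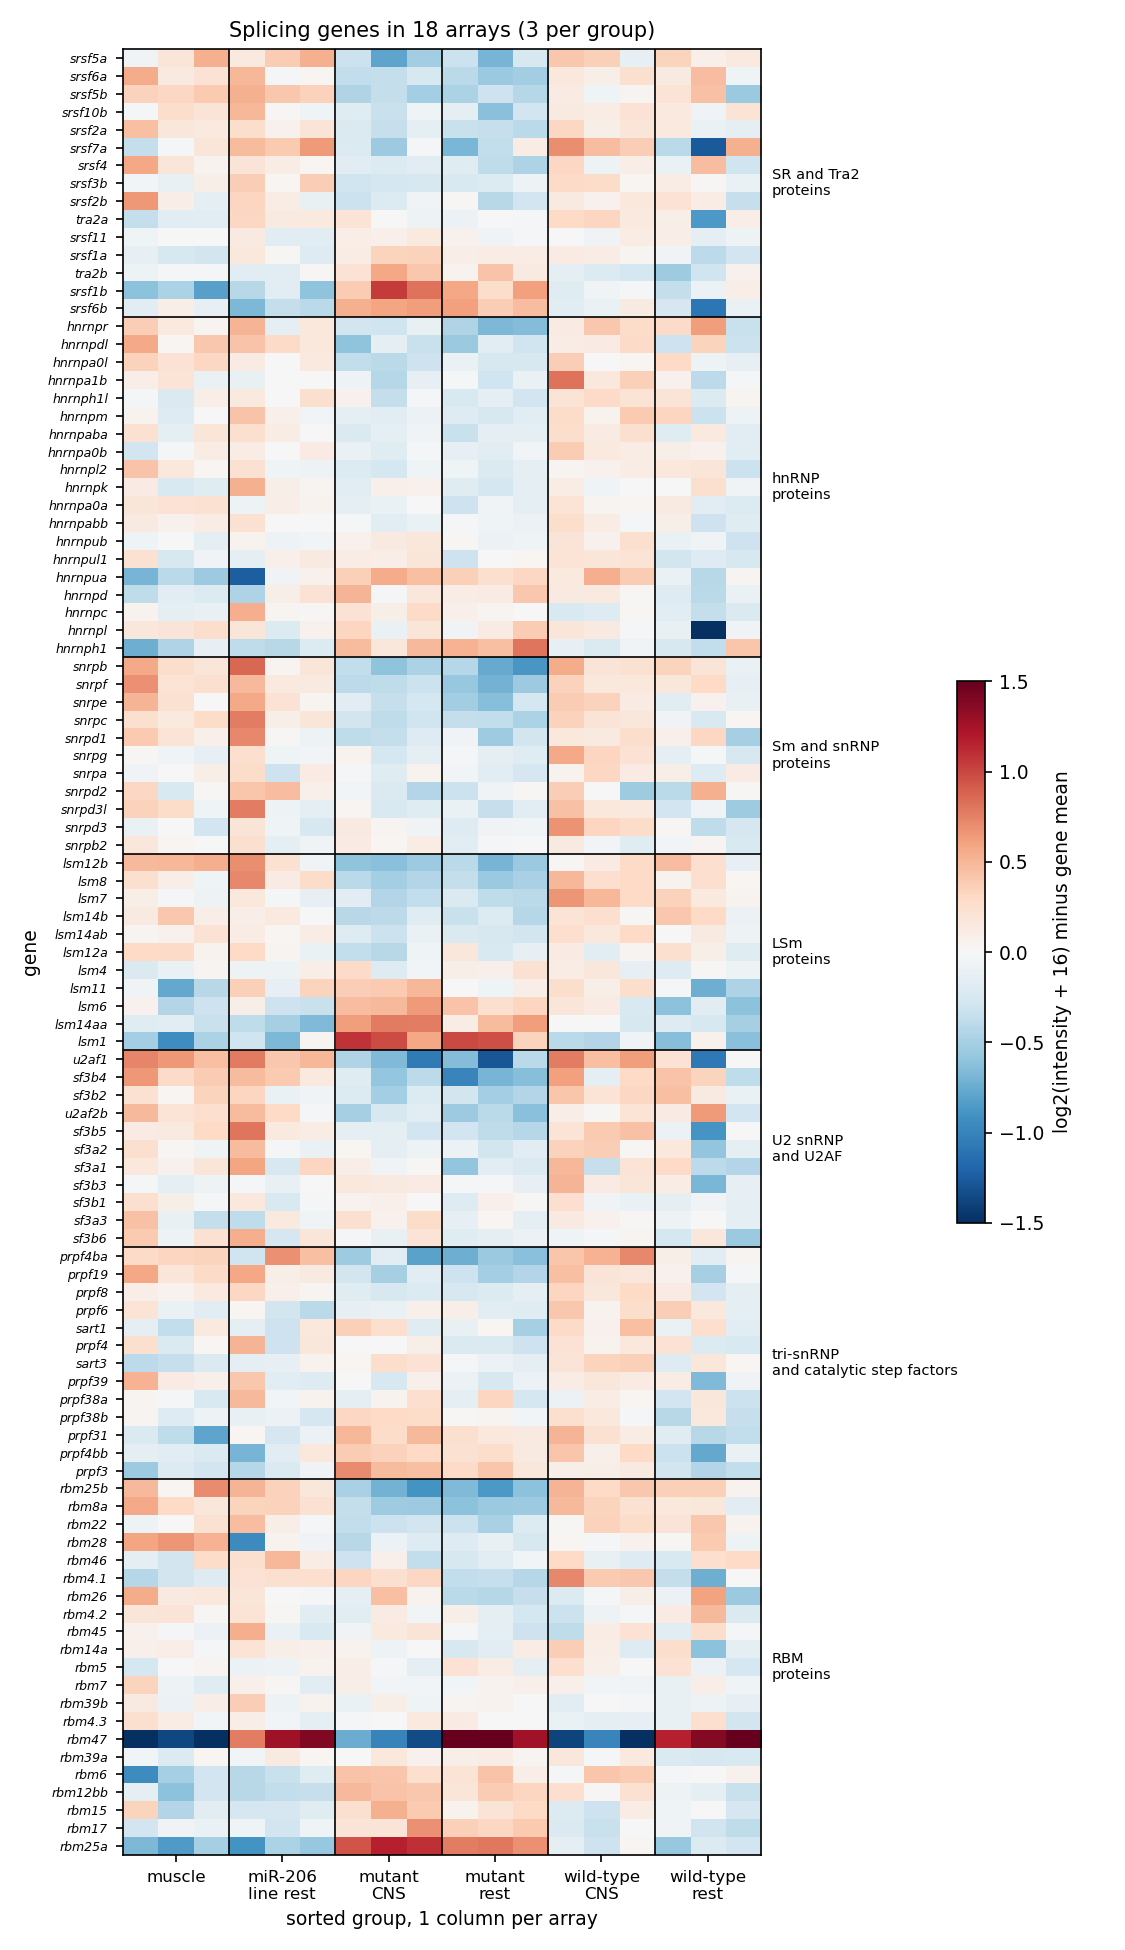
Level of the 101 tested splicing genes on each of the 18 arrays, as log2(intensity + 16) minus the mean of that gene over all arrays, in colour from -1.5 (blue) to 1.5 (red). Columns are arrays in blocks of 3 by sorted group, and rows are genes by role, ordered within a role by mutant minus wild-type level over both miR-124 fractions. Most rows are pale, and rbm47 alternates between sorted and GFP-negative blocks. The ordering itself puts the largest differences between mutant and wild-type blocks at the top and bottom of each role.

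Few splicing genes differed between muscle cells and the rest of their line. Of the 101 genes, 1 was higher and 3 were lower in muscle at an adjusted p under 0.05, where 36.2% of all features were called (13.1% higher and 23.1% lower). Differences of the splicing genes had a median of -0.02 on the log2 scale, against -0.06 for all features. Muscle and rest arrays were fully separate for 10 genes, against 42.4% of all features. The replicate numbers of this line paired its samples. With the replicate as a block 7 genes were called, 2 higher and 5 lower, against 15.3% and 25.2% of all features. Without replicate 1 of the miR-206 rest 6 genes were called, against 38.9% of all features. These counts depend on how the arrays are scaled. With arrays centred on their medians, 5 genes were higher and 1 was lower, against 23.3% and 16.2% of all features. The median of all features then moved to 0.14.

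rbm47 encodes an RNA-binding protein known from epithelia and from the editing of apolipoprotein B mRNA. Its intensity was 16.4, 33.1 and 23.4 in muscle cells and 199.6, 288 and 313 in the rest of that line (-2.81 ± 0.22 SE on the log2 scale, adjusted p = 2.34e-09). The groups were far apart, with every GFP-negative array over the highest muscle array. Of the 8 epidermal markers, the summed intensity was 200.1 to 624 in muscle cells and 5895 to 6669 in the rest, with no marker listed at 0, and its part in the rbm47 difference was not tested.

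The other changes in muscle were smaller. rbm28 was higher, at 499, 525 and 474 in muscle and 160.1, 338 and 313 in the rest (0.91 ± 0.19 SE, adjusted p = 0.00087), and without the low replicate 1 of the rest it was 0.59 and still called. The regulator of alternative splicing rbm4.1 was lower, at 109, 122 and 131 in muscle and 178, 182 and 183 in the rest (-0.53 ± 0.16 SE, adjusted p = 0.0107), with no overlap. lsm11, a subunit of the U7 snRNP that trims histone mRNAs, had 95, 51.8 and 70.4 in muscle and 132, 89.8 and 129 in the rest (-0.60 ± 0.19 SE, adjusted p = 0.0156), and here the groups overlapped. The call of lsm11 was lost without replicate 2 of muscle (-0.43), replicate 1 of the rest (-0.52) or replicate 3 of the rest (-0.53). With quantile normalization or with arrays centred on their medians, the calls of both lsm11 (-0.43 and -0.41) and rbm4.1 (-0.39 and -0.34) were lost.

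Bright members of several roles did not pass the test between muscle and the rest. The spliceosome's central protein prpf8 had 2052, 1974 and 2114 in muscle and 2372, 2006 and 1967 in the rest (-0.04 ± 0.11 SE, adjusted p = 0.802), and the branch-site factor sf3b1 had 2139, 1913 and 1761 in muscle and 2019, 1541 and 1773 in the rest (0.13 ± 0.12 SE, adjusted p = 0.461). The SR gene srsf11 had 2288, 2384 and 2393 in muscle and 2626, 2138 and 2116 in the rest (0.04 ± 0.10 SE, adjusted p = 0.777). The arrays of both groups lay close together for these 3 genes.

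In the wild-type miR-124 line nearly all called splicing genes were higher in CNS cells than in the rest. Of the 101 genes, 23 were higher and 1, rbm47, was lower, where 32.8% of all features were called (14.5% higher and 18.3% lower). The difference was above 0 for 84 of the 101 genes, with a median of 0.22 on the log2 scale, against 0.02 for all features. No overlap between the groups was found for 34 genes, against 43.1% of all features. The count rests partly on single arrays: it was 14 without replicate 2 of the GFP-negative cells and 11 without replicate 1 of the CNS cells. Of all features 29% and 26% were then called. With arrays centred on their medians the count was 42, of which 41 were higher. In that setting 24.1% of all features were higher and 14.7% lower. By mean level, 67 of the 101 genes lay in the brightest of 5 equal bins of features. There 12 of the 67 were higher and 0 lower (median 0.19), against 19.8% and 12.3% of the features of that bin (median 0.11). In the next bin 8 of 20 genes were higher and 0 lower, against 18.2% and 15.6% of its features.

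Every role had called genes in this comparison. They were 6 of 13 tri-snRNP and step factors, 3 of 15 SR and Tra2 genes, 3 of 19 hnRNP genes, 3 of 11 Sm and snRNP genes, 2 of 11 LSm genes and 3 of 11 U2 and U2AF genes, all higher. Of 21 RBM genes 3 were higher and 1 was lower. For the hnRNP, LSm and RBM genes the share higher lay near the 14.5% of all features. The tri-snRNP and step factors were above 0 for 13 of 13 genes with a median of 0.34. The summed intensity of 13 proliferation markers was 20108 to 22223 in these CNS cells and 12919 to 14595 in the rest, with 11 of 13 higher and none listed at 0, and its part in these differences was not tested.

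rbm4.1 was among the genes with the largest rises. Its intensity was 260.4, 203 and 206 in CNS cells and 115, 84.6 and 152 in the rest (0.87 ± 0.16 SE on the log2 scale, adjusted p = 0.000183). prpf31, a U4/U6 protein whose human gene is mutated in retinitis pigmentosa, had 266, 216 and 198 in CNS cells and 159, 133 and 138 in the rest (0.60 ± 0.15 SE, adjusted p = 0.00428). The kinase genes prpf4ba and prpf4bb both rose: prpf4ba had 446, 479.7 and 553 in CNS cells and 351, 294 and 338 in the rest (0.56 ± 0.20 SE, adjusted p = 0.0326). The second of the pair, prpf4bb, had 276, 216 and 254 in CNS cells and 159.7, 113 and 189 in the rest (0.66 ± 0.18 SE, adjusted p = 0.00876). For these 4 genes all CNS arrays exceeded all GFP-negative arrays, and without replicate 2 of the GFP-negative cells prpf4bb was at 0.47 and prpf4ba at 0.49, neither called. The call of prpf4ba was also lost without CNS replicate 2 or 3 or GFP-negative replicate 3.

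The Sm ring gene snrpd3 had 391, 304 and 293 in CNS cells and 244, 181 and 198 in the rest (0.63 ± 0.15 SE, adjusted p = 0.00276). The ring gene snrpg also rose (0.51 ± 0.14 SE, adjusted p = 0.00658), as did hnrnpa1b, a relative of the mammalian exon silencer hnRNP A1 (0.56 ± 0.15 SE, adjusted p = 0.00747). The call of hnrnpa1b was lost without CNS replicate 1 (0.37) or GFP-negative replicate 2 (0.42). Some of the wider differences leaned on the low replicate 2 of the GFP-negative cells. u2af1, the U2AF subunit that reads the AG of the 3′ splice site, had 271, 216 and 246 in CNS cells and 180.5, 64.7 and 153 in the rest (0.90 ± 0.26 SE, adjusted p = 0.0116). Without that array its difference was 0.51 and not called. The SR gene srsf7a had 609.6, 514 and 481 in CNS cells and 274, 144 and 540.1 in the rest (0.89 ± 0.30 SE, adjusted p = 0.0259), the groups overlapped, and the value was 0.45 without the array, again not called. The small SF3b subunit sf3b5 had 295, 339 and 349.6 in CNS cells and 238, 129.5 and 252 in the rest (0.68 ± 0.20 SE, adjusted p = 0.0123), and 0.40 without the array. The CNS arrays lay above every GFP-negative array for u2af1 and sf3b5, with the low replicate 2 farthest from them. lsm11 had 122, 107 and 122 in CNS cells and 97.2, 53.5 and 67.8 in the rest (0.61 ± 0.19 SE, adjusted p = 0.0159), and 0.45 without it. The brightest step factors prpf8 (0.36 ± 0.11 SE, adjusted p = 0.0159) and prpf19 (0.43 ± 0.16 SE, adjusted p = 0.0423) also lost their calls without it, at 0.27 and 0.26. The calls of prpf8 and lsm11 were also lost without CNS replicate 1 or 3, that of prpf19 without any one CNS array, and that of srsf7a without CNS replicate 1 or 2 or GFP-negative replicate 1.

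rbm47 was higher in the GFP-negative cells of all 3 lines. In the wild-type miR-124 line it had 32.2, 47.7 and 24.3 in CNS cells and 268, 312 and 444 in the rest (-2.81 ± 0.22 SE, adjusted p = 5.26e-09). In the mutant line it had 59.1, 47.2 and 33.9 in CNS cells and 345, 338 and 287 in the rest (-2.45 ± 0.22 SE, adjusted p = 6.41e-08). Every GFP-negative array exceeded every sorted array of its line.

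In the mutant line few splicing genes separated CNS cells from the rest. 1 gene was higher and 1 lower of 101, where 15.5% of all features were called (6.49% higher and 9.03% lower), and at an unadjusted p under 0.05 there were 6 higher and 1 lower, against 11.9% and 13.7% of all features. The median difference was 0.10 on the log2 scale, against 0.01 for all features. The gene that was higher, rbm4.1, had 194, 182 and 192 in mutant CNS cells and 114, 116 and 109 in the mutant rest (0.67 ± 0.16 SE, adjusted p = 0.00407), and the one that was lower was rbm47. No overlap between the groups was found for 28 genes, against 38.7% of all features. The summed intensity of the 8 epidermal markers overlapped between mutant CNS cells (3425 to 5837) and the mutant rest (4936 to 7036). In the wild type it was 751 to 1410 in CNS cells and 5372 to 7383 in the rest. The part of this in the number of calls was not tested.

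Whether the CNS difference itself changed with genotype was tested by the interaction of sort and genotype. It called 0 of 101 splicing genes with limma, where it called 2.58% of all features (2.27% higher and 0.304% lower), and at an unadjusted p under 0.05 there were 0 higher and 6 lower, against 9.07% and 4.57% of all features. These 6 were u2af1, hnrnpa1b, snrpg, snrpd3, prpf8 and rbm39a, with values of -0.85, -0.63, -0.50, -0.49, -0.38 and -0.34 on the log2 scale. Their adjusted p-values were 0.156 to 0.35. A median of -0.11 was found over the 101 genes. So the smaller number of calls in the mutant line is not shown to be a smaller difference for any one gene.

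**Figure D2:**
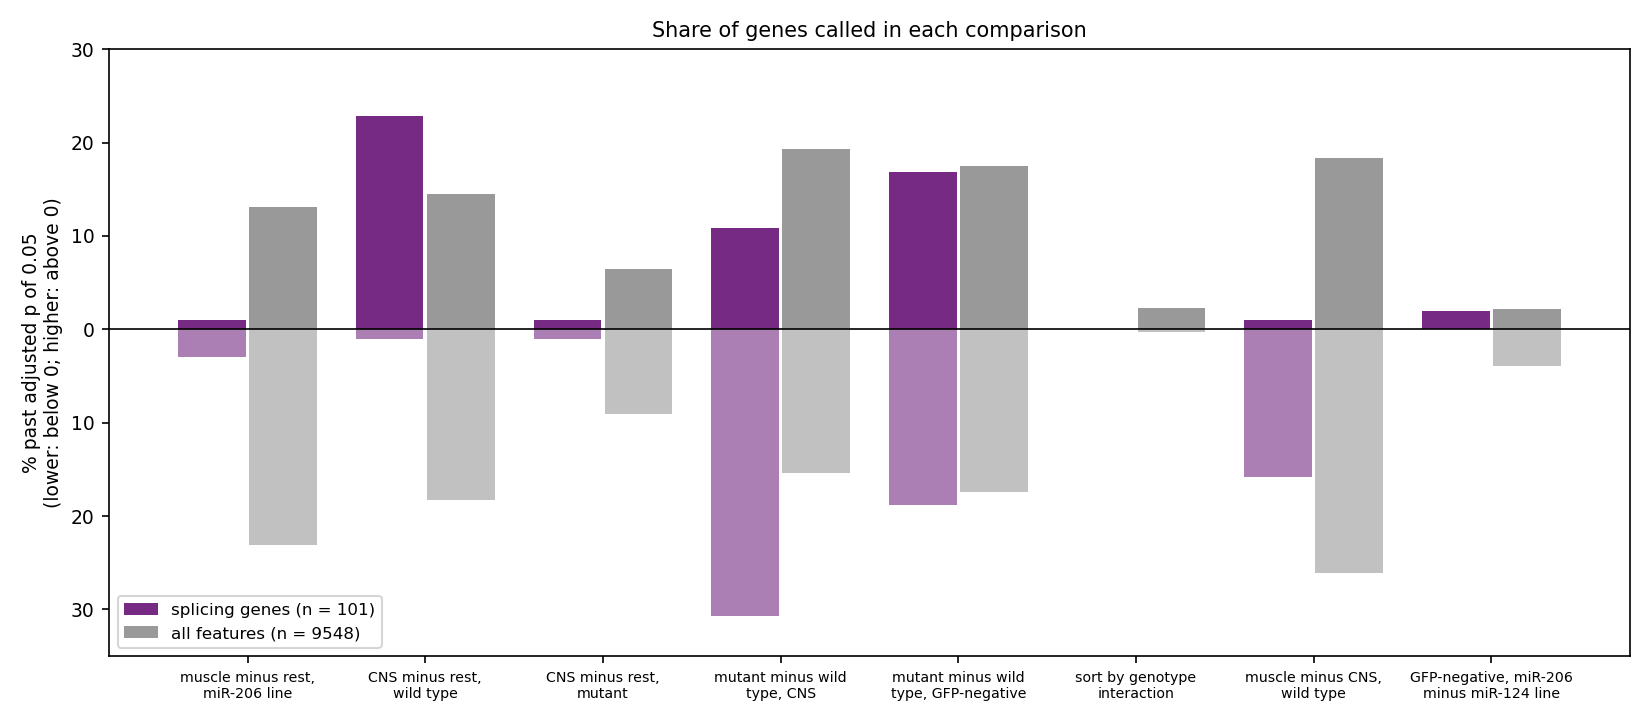
Share of the 101 splicing genes (purple) and of all 9548 features (grey) past an adjusted p of 0.05 in each of the 8 comparisons, as percent higher in the group named first above the zero line and percent lower below it. Splicing genes have short bars in muscle, a bar above that of all features for CNS against rest in the wild type (22.8% against 14.5% higher) and below it for mutant against wild-type CNS cells (30.7% against 15.4% lower).

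Splicing genes differed in both directions between mutant and wild type. These comparisons share the wild-type miR-124 arrays with the comparison of CNS cells with the rest. In CNS cells 11 of the 101 splicing genes were higher and 31 lower in the mutant than in the wild type, where 34.7% of all features were called (19.3% higher and 15.4% lower). The median difference was -0.20 on the log2 scale, against 0.02 for all features, and 64 genes did not overlap between the groups, against 56.1% of all features. In GFP-negative cells 17 were higher and 19 lower, where 34.9% of all features were called (17.5% higher and 17.4% lower). There the median was -0.09, against -0.00 for all features, and 44 genes did not overlap, against 46.1%. With quantile normalization the CNS count was 13 higher and 25 lower, against 16.3% and 16.4% of all features. In that setting the values of snrpf (-0.38), lsm14ab (-0.28) and prpf8 (-0.26) were still called. With arrays centred on their medians the CNS count was 8 higher and 36 lower, against 15.8% and 19.3% of all features. Without replicate 2 of the wild-type rest the count in GFP-negative cells was 10 higher and 20 lower, against 14.1% and 13.6% of all features. Apart from tra2b and hnrnpl in GFP-negative cells, mutant and wild-type arrays did not overlap for any called splicing gene in either fraction. The genes were called on these same arrays, so the separation, here and for single genes below, is no further support for the calls.

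These fractions were sorted from the same 2 lines but share no arrays. Replicate numbers paired the fractions of the mutant line, so the 2 fractions are not fully independent samples. Of the 42 genes called in CNS cells 26 (61.9%) were called in the same direction in GFP-negative cells, and these are 72.2% of the 36 called there. For all features the shares were 60% and 59.7%. Of the 26, 10 were higher and 16 lower in both. Over all features 11.4% were higher and 9.45% lower in both. None of the splicing genes was called in opposite directions in the 2 fractions. That was rare among all features too, with 0.419% higher in CNS cells and lower in the rest and 0.0105% the reverse. A further 15 splicing genes were called lower and 1 higher in CNS cells alone (5.99% and 7.45% of all features). In GFP-negative cells alone 7 were higher and 3 lower (6.13% and 7.53% of all features), and 49 were called in neither (51.6%). As the interaction above shows, none of these is shown to differ between the fractions.

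The brightness of the probe sets moved with these differences. Of the 101 splicing genes, 67 lay in the highest of 5 equal bins of features by mean level. There, 28.7% of all features were lower and 12.5% higher in mutant CNS cells, with a median of -0.13 on the log2 scale, and 24 of the 67 splicing genes were lower and 4 higher, with a median of -0.29. In GFP-negative cells 22.4% of the features of this bin were lower and 14.3% higher, with a median of -0.07. There 14 of the splicing genes were lower and 7 higher, with a median of -0.14. The few dim splicing genes of bins 2 and 3 (5 the brightest), 4 and 7 genes, went the other way. Their medians in CNS cells were 0.42 and 0.31, against 0.10 and 0.14 for all features. In GFP-negative cells these medians were 0.42 and 0.29, against 0.02 and 0.12. The brightest probe set of an array read 8449 to 8902 in mutant CNS cells and 9677 to 11230.3 in the mutant rest, against 12057 to 14909 in wild-type CNS cells and 11874 to 15038 in the wild-type rest. The part of this shift in the splicing genes' values was not tested beyond the 2 rescalings given here.

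**Figure D3:**
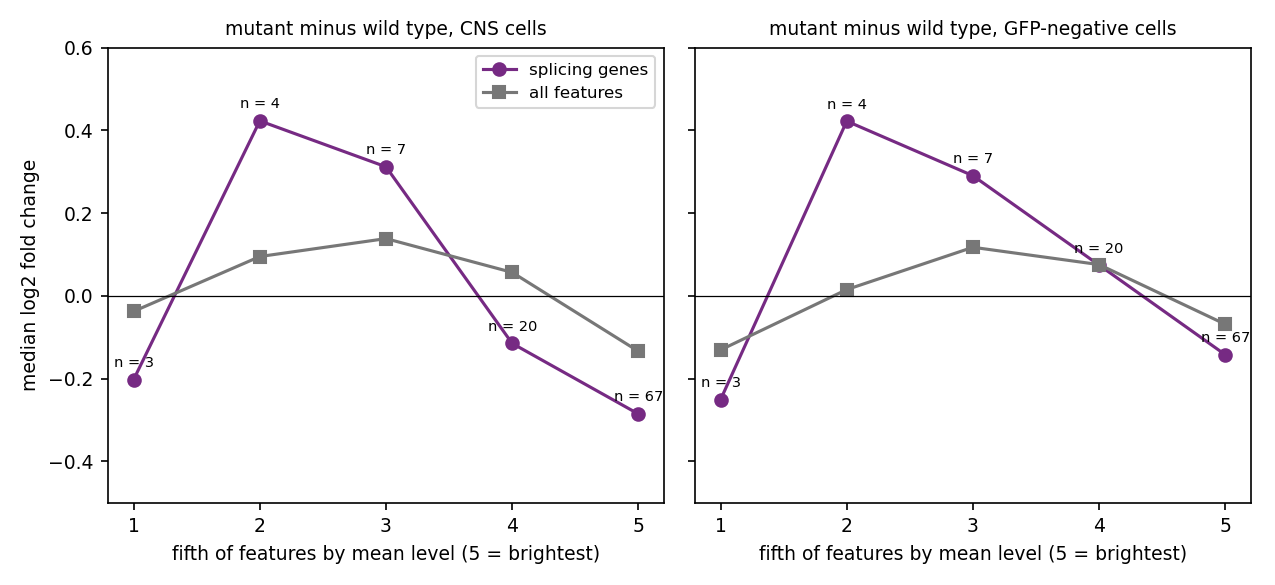
Median log2 fold change of mutant over wild type in each of 5 equal bins of features by mean level, for splicing genes (purple circles, with the number of genes) and all features (grey squares), in CNS cells on the left and GFP-negative cells on the right. In the brightest bin both medians are below 0 and that of the 67 splicing genes is the lower of the pair, at -0.29 against -0.13 in CNS cells and -0.14 against -0.07 in GFP-negative cells. In bins 2 and 3, with 4 and 7 splicing genes, their medians are above 0 in both panels.

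By role, the Sm and snRNP genes and the U2 genes had calls in 1 direction. Of 11 Sm and snRNP genes 0 were higher and 5 lower in mutant CNS cells (median -0.48), and 0 higher and 3 lower in the mutant rest (median -0.17). Of 11 U2 and U2AF genes 0 were higher and 4 lower in mutant CNS cells (median -0.31), and 0 higher and 3 lower in the mutant rest (median -0.04). Over all features 19.3% were higher and 15.4% lower in mutant CNS cells, and 17.5% and 17.4% in the mutant rest. In the brightest bin 28.7% of the features were lower in CNS cells and 22.4% in the rest. The U2 counts and the Sm count in the rest were not far above the shares of that bin. After quantile normalization the Sm counts were 6 lower in CNS cells and 4 in the rest. The U2 counts were 4 and 3, and no gene of either role was higher. Of all features 16.4% and 17.3% were then lower. With arrays centred on their medians the Sm counts were 7 lower in CNS cells and 2 in the rest. The U2 counts were again 4 and 3, with none higher in either role. Of all features 19.3% and 16.5% were lower in that setting.

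snrpb, the gene of the Sm B protein, had 1322, 1123 and 1231 in mutant CNS cells and 2543, 1972 and 2008 in wild-type CNS cells (-0.81 ± 0.19 SE on the log2 scale, adjusted p = 0.00213). In GFP-negative cells it had 1276, 1009.8 and 927 in the mutant and 2171, 1962 and 1606 in the wild type (-0.83 ± 0.19 SE, adjusted p = 0.00209). The mutant arrays lay below all wild-type arrays in both fractions. snrpf, another subunit of the ring, had 1418, 1432 and 1483 in mutant CNS cells and 2373, 2079 and 2072 in wild-type CNS cells (-0.58 ± 0.14 SE, adjusted p = 0.00318). In the rest it had 1256, 1138 and 1275 in the mutant and 2091, 2302 and 1711 in the wild type (-0.72 ± 0.14 SE, adjusted p = 0.000697). The ring gene snrpe fell in both fractions too (-0.55 in CNS cells and -0.40 in the rest), while snrpg (-0.48 ± 0.14 SE, adjusted p = 0.00975) and the U1 protein gene snrpc (-0.56 ± 0.15 SE, adjusted p = 0.00638) were called in CNS cells alone. The call of snrpe in the rest was lost without any one array but replicate 3 of the mutant (-0.32 to -0.45), and that of snrpg without mutant replicate 2 or wild-type replicate 1.

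Of the U2 genes, u2af1 had 107, 91.3 and 65.4 in mutant CNS cells and 271, 216 and 246 in wild-type CNS cells (-1.34 ± 0.26 SE on the log2 scale, adjusted p = 0.000629). Every mutant array lay under the lowest wild-type array, and this was the largest fall among the splicing genes. In GFP-negative cells it had 91.7, 53.7 and 112 in the mutant and 180.5, 64.7 and 153 in the wild type, with overlap (-0.49 ± 0.26 SE, adjusted p = 0.151). The SF3b gene sf3b4 had 346, 257 and 295 in mutant CNS cells and 609.6, 358 and 489.9 in wild-type CNS cells (-0.65 ± 0.21 SE, adjusted p = 0.0193). In the rest it had 191, 236 and 247 in the mutant and 534, 502 and 299.7 in the wild type (-0.90 ± 0.21 SE, adjusted p = 0.00239), again without overlap. The call of sf3b4 in CNS cells was lost without mutant replicate 2 or 3 or wild-type replicate 1 or 3 (-0.47 to -0.64). sf3b5 was lower in CNS cells (-0.54 ± 0.20 SE, adjusted p = 0.0402), a call lost without any one array. sf3b2 fell in both fractions (-0.61 in CNS cells and -0.57 in the rest). u2af2b, the U2AF subunit that binds the pyrimidine tract, was called in the rest, at 996, 1097 and 938 in the mutant and 1584, 2270.0 and 1186 in the wild type (-0.68 ± 0.18 SE, adjusted p = 0.00639). Without replicate 2 of the wild-type rest u2af2b was at -0.44 and still called. sf3b1, the scaffold of the SF3b complex, was not called, at 0.01 in CNS cells and 0.08 in the rest.

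**Figure D4:**
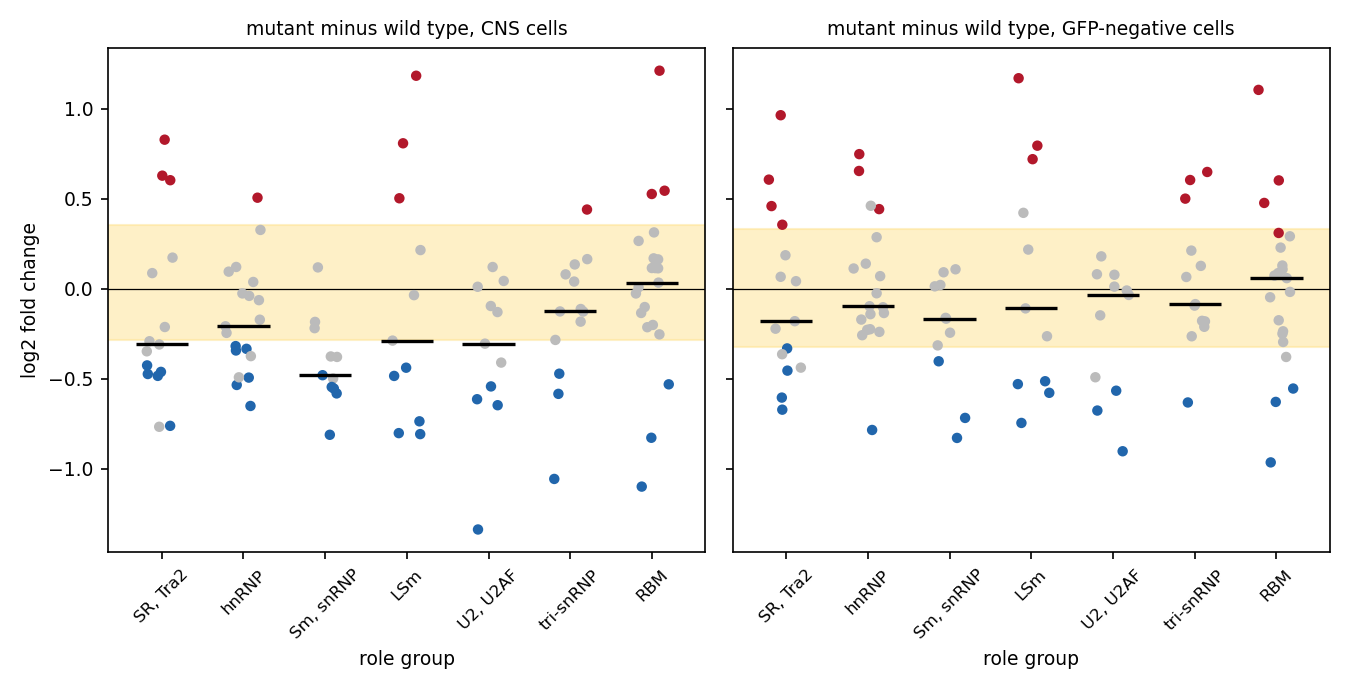
Log2 fold change of mutant over wild type for each of the 101 splicing genes by role, in CNS cells on the left and GFP-negative cells on the right. Each point is 1 gene (red higher and blue lower at an adjusted p under 0.05, grey not called), black lines are medians of a role, and the yellow band spans the lower to the upper quartile of all features. No Sm or U2 gene is red in either panel, whereas LSm, SR and RBM genes have both colours.

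LSm genes went both ways. Of 11, 3 were higher and 5 lower in mutant CNS cells, and 3 higher and 4 lower in the rest. Shares of all features were 19.3% and 15.4% in CNS cells and 17.5% and 17.4% in the rest. lsm1, whose protein replaces Lsm8 in the cytoplasmic ring that promotes decapping, had 181, 167 and 123 in mutant CNS cells and 53.8, 52.5 and 73.5 in wild-type CNS cells (1.18 ± 0.23 SE on the log2 scale, adjusted p = 0.000576). In the rest it had 168, 165 and 101 in the mutant and 43.5, 80.7 and 43.8 in the wild type (1.17 ± 0.23 SE, adjusted p = 0.000755). Every mutant array exceeded every wild-type array of its fraction. lsm8, which defines the nuclear ring on U6, had 232, 215 and 226 in mutant CNS cells and 446, 377 and 389 in wild-type CNS cells (-0.80 ± 0.15 SE, adjusted p = 0.000313). In the rest lsm8 had 239.8, 207 and 218 in the mutant and 324, 374 and 321 in the wild type (-0.58 ± 0.15 SE, adjusted p = 0.00485). The genes of these alternative ring subunits thus changed in opposite directions in both fractions.

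Subunits that both rings share also differed in direction. lsm7 had 936, 767 and 809.8 in mutant CNS cells and 1666, 1486 and 1292 in wild-type CNS cells (-0.81 ± 0.13 SE, adjusted p = 7.71e-05), and fell in the rest as well (-0.51 ± 0.13 SE, adjusted p = 0.00423). lsm6 had 1006, 1019 and 1129 in mutant CNS cells and 820.3, 791 and 616 in wild-type CNS cells (0.50 ± 0.16 SE, adjusted p = 0.0216), a call lost without replicate 3 of the mutant (0.45) or of the wild type (0.38) and with arrays centred on their medians (0.42). In the rest lsm6 had 974, 854 and 905 in the mutant and 466, 642 and 464 in the wild type (0.79 ± 0.16 SE, adjusted p = 0.00104), without overlap. lsm12b, which encodes another protein with an LSm domain, had 277, 271 and 287 in mutant CNS cells and 434, 469 and 526 in wild-type CNS cells (-0.74 ± 0.17 SE, adjusted p = 0.00231). It was also lower in the rest (-0.75 ± 0.17 SE, adjusted p = 0.00243), but its other probe set was not called in CNS cells (-0.077).

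Among SR and Tra2 genes, 3 of 15 were higher and 5 lower in mutant CNS cells, and 4 higher and 4 lower in the rest. Among all features these shares were 19.3% and 15.4%, and 17.5% and 17.4%. srsf1b, a homologue of the splicing activator SRSF1, had 277, 448 and 379.6 in mutant CNS cells and 182, 202 and 207 in wild-type CNS cells (0.83 ± 0.17 SE on the log2 scale, adjusted p = 0.00115). Its level in the rest was 320.5, 254 and 329 in the mutant and 159, 196 and 225 in the wild type (0.61 ± 0.17 SE, adjusted p = 0.0115), a call lost without mutant replicate 3 (0.54) or wild-type replicate 1 (0.48). tra2b, which activates exons together with SR proteins, had 471, 611 and 538 in mutant CNS cells and 363, 347 and 335 in wild-type CNS cells (0.60 ± 0.15 SE, adjusted p = 0.00391), without overlap, and was also called in the rest (0.46 ± 0.15 SE, adjusted p = 0.022). That call was lost without mutant replicate 2 (0.35) or wild-type replicate 1 (0.32) or 2 (0.44). srsf5a had 814, 583 and 706 in mutant CNS cells and 1359, 1320.0 and 938 in wild-type CNS cells (-0.76 ± 0.18 SE, adjusted p = 0.00263). Here the mutant arrays were the low ones. Its level in the rest was 817, 624 and 863 in the mutant and 1289, 1082 and 1135 in the wild type (-0.61 ± 0.18 SE, adjusted p = 0.013), a call lost without mutant replicate 2 (-0.47) or wild-type replicate 1 (-0.53). The bright srsf2a fell in both fractions on the deposited scale (-0.43 in CNS cells and -0.33 in the rest) but was not called in either after quantile normalization (-0.12 and -0.15). Its call in the rest was also lost without any one mutant array (-0.31 to -0.35) or replicate 1 of the wild type (-0.25).

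The hnRNP genes depended on the scaling. Of 19, 1 was higher and 6 lower in mutant CNS cells on the deposited scale (median -0.21). After quantile normalization 1 was higher and 1 lower (median 0.07), and with arrays centred on their medians 0 were higher and 8 lower (median -0.29). On the deposited scale 19.3% of all features were higher and 15.4% lower. These shares were 16.3% and 16.4% with quantile normalization and 15.8% and 19.3% with median centring. The bright hnrnpa0l had 3619, 3532 and 3757 in mutant CNS cells and 6055, 4659 and 4776 in wild-type CNS cells (-0.49 ± 0.12 SE on the log2 scale, adjusted p = 0.00278), and 0.092 after quantile normalization. The bright hnrnpa0b (-0.32 ± 0.11 SE, adjusted p = 0.0329) stood at 0.21 after quantile normalization and lost its call without replicate 1 or 2 of the mutant or replicate 1 of the wild type. Of its other probe sets, 1 was called in the opposite direction (0.76, adjusted p = 0.0116 with all probe sets tested singly). In the rest 3 hnRNP genes were higher and 1 lower, against 17.5% and 17.4% of all features. hnrnph1, of a family that binds runs of G, had 178, 141 and 180.2 in mutant CNS cells and 112, 105 and 119 in wild-type CNS cells (0.51 ± 0.19 SE, adjusted p = 0.0441). This call was lost with quantile normalization (0.37), with arrays centred on their medians (0.42) and without any one array but mutant replicate 2. It was called in the rest too (0.65 ± 0.19 SE, adjusted p = 0.0116), though not without replicate 2 of the wild-type rest (0.50) or replicate 3 of the mutant rest (0.55). hnrnpr had 239.7, 204 and 207 in the mutant rest and 412, 526 and 262 in the wild-type rest (-0.79 ± 0.20 SE, adjusted p = 0.00462). hnrnpl had 339.8, 388 and 465 in the mutant rest and 326, 104 and 342 in the wild-type rest (0.75 ± 0.27 SE, adjusted p = 0.039). The groups overlapped for hnrnpl, and its value was 0.23 and not called without replicate 2 of the wild-type rest. The call was also lost without replicate 2 (0.76) or 3 (0.63) of the mutant rest.

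Tri-snRNP and step factors were split as well, with 1 of 13 higher and 3 lower in mutant CNS cells, and 3 higher and 1 lower in the rest. For all features the shares were 19.3% and 15.4% in CNS cells and 17.5% and 17.4% in the rest. The U4/U6 protein gene prpf3 had 404, 342 and 335 in mutant CNS cells and 257, 258 and 267 in wild-type CNS cells (0.44 ± 0.13 SE, adjusted p = 0.0163), a call lost without mutant replicate 1 (0.36). In the rest it had 297, 328 and 273 in the mutant and 197, 174 and 184 in the wild type (0.65 ± 0.13 SE, adjusted p = 0.00121), and its other probe set was higher too in CNS cells (1.05). prpf8 had 1684, 1610.4 and 1648 in mutant CNS cells and 2388, 2150.5 and 2345 in wild-type CNS cells (-0.47 ± 0.11 SE, adjusted p = 0.00282), with no overlap. prpf19, the ubiquitin ligase of the complex named after it, also fell in CNS cells (-0.58 ± 0.16 SE, adjusted p = 0.00731), though it was not called after quantile normalization (-0.27).

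Of 21 RBM genes 3 were higher and 3 lower in mutant CNS cells, and 4 higher and 3 lower in the rest. These counts lay near the shares of all features, 19.3% and 15.4% in CNS cells and 17.5% and 17.4% in the rest. rbm8a, which encodes Y14 of the exon junction complex, had 1285, 1139.7 and 1130.5 in mutant CNS cells and 2318, 2093 and 1946 in wild-type CNS cells (-0.83 ± 0.12 SE on the log2 scale, adjusted p = 4.27e-05). In the rest rbm8a had 1075, 1119.7 and 1132 in the mutant and 1855, 1859.9 and 1484 in the wild type (-0.63 ± 0.12 SE, adjusted p = 0.000675). All mutant arrays lay under all wild-type arrays. rbm17, a factor of 3′ splice site choice, was higher in CNS cells (0.54 ± 0.14 SE, adjusted p = 0.00626) and in the rest (0.60 ± 0.14 SE, adjusted p = 0.00335), and its CNS call was lost without replicate 3 of the mutant (0.38). rbm15, whose protein binds the writers of m6A, was higher in CNS cells (0.53 ± 0.17 SE, adjusted p = 0.0214) but lost its call when any of 4 single arrays was left out (lowest value 0.44). Its call was also lost with quantile normalization (0.38) and with arrays centred on their medians (0.44).

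Some changes of opposite direction fell on duplicated genes, which zebrafish keep in many families after a genome duplication in the fish lineage. From the 101 genes 12 such pairs, with symbols ending in a and b, were taken after the values had been seen. In mutant CNS cells 3 pairs were called in opposite directions, 1 in the same direction, 6 in 1 gene only and 2 in neither. In the rest the counts were 3, 1, 5 and 3. Since these pairs were picked with values known and no other duplicated genes were counted, the counts only describe them. Relatives with other endings were not taken. Of these, hnrnph1 (0.51) and hnrnph1l (-0.33) were called in opposite directions in mutant CNS cells. None of snrpd3, snrpd3l, hnrnpl and hnrnpl2 was called there. Near-identical copies can share probe sequence. None of the genes in the 12 pairs was measured by a probe set of the s or x kind, which can match several genes.

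rbm25a and rbm25b, homologues of a U1-associated regulator, changed in opposite directions in both fractions. rbm25a had 114, 135 and 128 in mutant CNS cells and 45.2, 38.1 and 52.5 in wild-type CNS cells (1.21 ± 0.15 SE on the log2 scale, adjusted p = 7.76e-06). rbm25b had 41.2, 32.7 and 26.9 in mutant CNS cells and 97.5, 82.3 and 89.5 in wild-type CNS cells (-1.1 ± 0.17 SE on the log2 scale, adjusted p = 6.6e-05). In the rest rbm25a had 98.7, 101 and 92.5 in the mutant and 29.4, 42.3 and 39.2 in the wild type (1.1 ± 0.15 SE, adjusted p = 2.69e-05). There rbm25b had 34.6, 28 and 36.2 in the mutant and 86.1, 86 and 67.1 in the wild type (-0.97 ± 0.17 SE, adjusted p = 0.000305). No mutant array overlapped a wild-type array for either gene.

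The SR pair srsf6a and srsf6b was also called in opposite directions. srsf6a had 1314, 1315 and 1436 in mutant CNS cells and 1898, 1801 and 2011 in wild-type CNS cells (-0.48 ± 0.15 SE, adjusted p = 0.0163). srsf6b had 1982, 2069.6 and 2122 in mutant CNS cells and 1217, 1272 and 1506 in wild-type CNS cells (0.63 ± 0.18 SE, adjusted p = 0.0114). In the rest srsf6a had 1279, 1144 and 1179 in the mutant and 1869.8, 2334 and 1624 in the wild type (-0.67 ± 0.15 SE, adjusted p = 0.00198), and srsf6b had 2097, 1776 and 1894 in the mutant and 1148, 636 and 1271 in the wild type (0.96 ± 0.18 SE, adjusted p = 0.000547). The groups did not overlap in any of these 4 comparisons. The CNS call of srsf6b was lost without replicate 1 of the wild type (0.57), and the calls of srsf6a were lost in CNS cells (-0.31) and in the rest (-0.32) when its probe sets were averaged. In CNS cells srsf6a also lost its call with quantile normalization (-0.29) and without mutant replicate 1 or 2 or wild-type replicate 3.

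In CNS cells lsm14aa, of a family found in P-bodies, had 102, 115 and 114 in the mutant and 59.8, 60.4 and 48.5 in the wild type (0.81 ± 0.15 SE, adjusted p = 0.00036). Its partner lsm14ab had 1140.1, 1039.7 and 1218 in mutant CNS cells and 1553, 1461 and 1604 in wild-type CNS cells (-0.44 ± 0.10 SE, adjusted p = 0.00282). In the rest lsm14aa was higher again (0.72 ± 0.15 SE, adjusted p = 0.00117), while lsm14ab missed the threshold (-0.26 ± 0.10 SE, adjusted p = 0.0538). With its probe sets averaged lsm14aa was at 0.34 in CNS cells and 0.38 in the rest, still called. The kinase pair was called in opposite directions in the rest: prpf4ba had 192, 218 and 207 in the mutant and 351, 294 and 338 in the wild type (-0.63 ± 0.20 SE, adjusted p = 0.0176). There prpf4bb had 240.3, 248 and 224 in the mutant and 159.7, 113 and 189 in the wild type (0.60 ± 0.18 SE, adjusted p = 0.0162). In CNS cells prpf4ba had 223, 291 and 181 in the mutant and 446, 479.7 and 553 in the wild type (-1.06 ± 0.20 SE, adjusted p = 0.000389), and prpf4bb was not called (0.08 ± 0.18 SE, adjusted p = 0.773). In the rest the call of prpf4bb was lost without replicate 2 of the wild type (0.42) or of the mutant (0.57), and that of prpf4ba without replicate 1 of either.

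**Figure D5:**
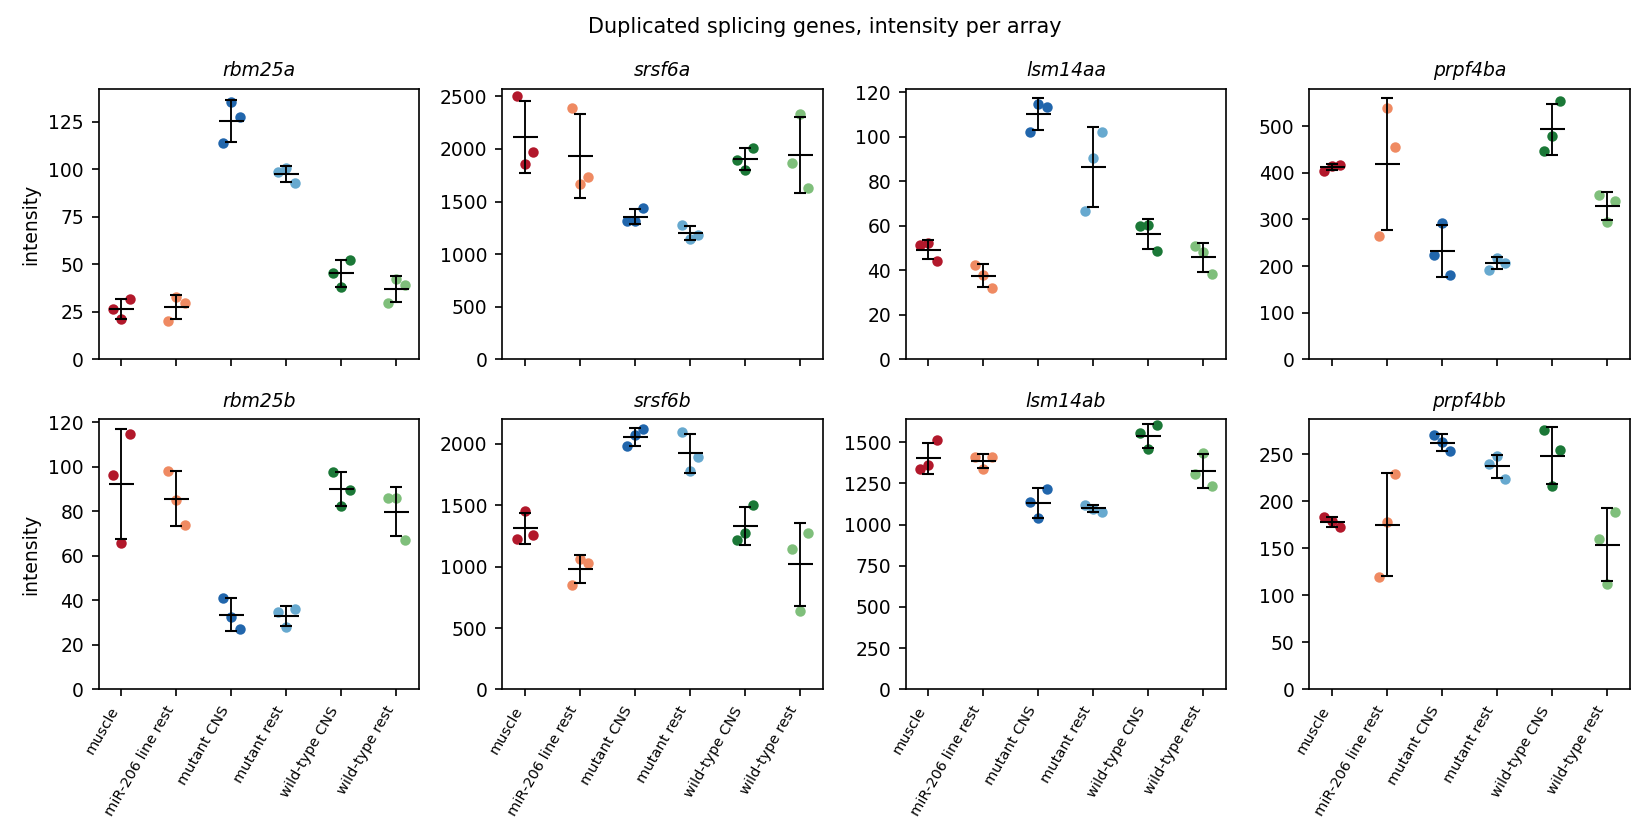
Intensity on each array (points) with group mean and SD (black, n = 3) of 4 duplicated pairs, one gene of a pair above the other, in muscle, miR-206 rest, mutant CNS, mutant rest, wild-type CNS and wild-type rest. Mutant means lie above wild-type means of the same fraction for rbm25a, srsf6b and lsm14aa and below them for rbm25b, srsf6a, lsm14ab and prpf4ba.

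Values that moved with the genotype in CNS cells were also seen in markers. The summed intensity of 8 epidermal markers was 3425 to 5837 in mutant CNS cells and 751 to 1410 in wild-type CNS cells, with 6 of 8 higher. That of 13 proliferation markers was 14773 to 16194 in mutant CNS cells and 20108 to 22223 in wild-type CNS cells, with 6 of 13 lower and 0 higher. Not all of that list moved down: cdk1 had 828, 728 and 861 in mutant CNS cells and 665, 602 and 668 in wild-type CNS cells, every mutant array higher, and was not called. The 2 endothelial markers tested summed to 85.8 to 221 in mutant CNS cells and 39.2 to 77 in wild-type CNS cells, and both were higher. In the GFP-negative cells the epidermal sum was 4936 to 7036 in the mutant and 5372 to 7383 in the wild type, and the proliferation sum 11997 to 13124 in the mutant and 12919 to 14595 in the wild type. In those cells 5 erythroid markers summed to 1618 to 3235 in the mutant and 6978 to 7875 in the wild type, with 3 of 5 lower, and 13 muscle markers to 3152 to 4667 in the mutant and 4845 to 6777 in the wild type, with 5 of 13 lower. No marker of these lists was at 0 on any array, and their part in the differences of the splicing genes was not tested.

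A smaller share of the splicing genes than of all features differed between muscle and CNS cells of the wild type, and most of those called were lower in muscle. Of 101 genes 1 was higher and 16 lower in muscle, where 44.4% of all features were called (18.3% higher and 26.1% lower), and the median was -0.08 on the log2 scale, against -0.06 for all features. No overlap was found for 34 genes, against 56.7% of all features. With arrays centred on their medians 2 were higher and 10 lower, against 23.7% and 20.7% of all features. The median was then 0.04, against 0.06 for all features. Proliferation markers summed to 9982 to 11148 in muscle and 20108 to 22223 in CNS cells, and 12 of 13 were lower in muscle. The lines differ as well as the cell types, and these cannot be told apart.

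hnrnpua, a homologue of the scaffold attachment protein SAF-A, had 146, 182 and 164 in muscle and 275, 369 and 327 in CNS cells (-0.91 ± 0.23 SE on the log2 scale, adjusted p = 0.00355). rbm6 had 196, 270.2 and 316 in muscle and 382, 523 and 511 in CNS cells (-0.83 ± 0.16 SE, adjusted p = 0.000237). prpf31 had 154, 136 and 98.8 in muscle and 266, 216 and 198 in CNS cells (-0.75 ± 0.15 SE, adjusted p = 0.000477). Muscle arrays lay below all CNS arrays for each of these. sart3, which recycles the U4/U6 snRNP, had 814, 844 and 923 in muscle and 1231, 1353 and 1379 in CNS cells (-0.61 ± 0.12 SE, adjusted p = 0.000245). The values of rbm4.1 (-0.80 ± 0.16 SE, adjusted p = 0.000274), lsm11 (-0.62 ± 0.19 SE, adjusted p = 0.0111), snrpd3 (-0.55 ± 0.15 SE, adjusted p = 0.00528) and srsf1b (-0.55 ± 0.17 SE, adjusted p = 0.0145) were also lower in muscle. rbm28 was the gene that was higher (0.57 ± 0.19 SE, adjusted p = 0.0216). With quantile normalization or median centring lsm11 (-0.50 in both) and srsf1b (-0.42 and -0.43) were not called. The call of lsm11 was lost without muscle replicate 2 (-0.44), that of srsf1b without muscle replicate 3 (-0.46), and that of rbm28 without replicate 2 of muscle (0.54) or of CNS cells (0.55).

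Between wild-type lines, the GFP-negative fractions differed in 2 splicing genes, both higher in the miR-206 line, where 6.13% of all features were called (2.23% higher and 3.9% lower). At an unadjusted p under 0.05 there were 17 higher and 2 lower, against 9.19% and 11.4% of all features. The median was 0.14 on the log2 scale against -0.02 for all features, and 13 genes did not overlap, against 17.7% of all features. rbm4.1 had 178, 182 and 183 in the miR-206 rest and 115, 84.6 and 152 in the miR-124 rest (0.60 ± 0.16 SE, adjusted p = 0.0248). sf3b5 had 454, 283 and 275 in the miR-206 rest and 238, 129.5 and 252 in the miR-124 rest (0.68 ± 0.20 SE, adjusted p = 0.0453). The calls rest on the 2 arrays that stood apart. Without replicate 1 of the miR-206 rest no gene was called, against 3.76% of all features. Without replicate 2 of the miR-124 rest neither rbm4.1 (0.41) nor sf3b5 (0.40) was, although 2 genes were, against 5.35% of all features. The call of rbm4.1 was also lost without any one of 3 other arrays (0.59 to 0.60). The rests also differ in what was sorted away. Muscle markers summed to 747 to 1125 in the miR-206 rest and 4845 to 6777 in the miR-124 rest, and neural markers to 5394 to 6682 in the miR-206 rest and 2413 to 2965 in the miR-124 rest.

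Other genes of the pathway, outside the families above, were read from 4 lists. Over all features the shares called were 14.5% higher and 18.3% lower for CNS cells against the rest in the wild type, 19.3% and 15.4% for mutant against wild-type CNS cells, 17.5% and 17.4% for mutant against wild-type GFP-negative cells, and 13.1% and 23.1% for muscle against its rest. Of 62 further core spliceosome genes tested, 9 were higher and 0 lower in wild-type CNS cells than in the rest, 3 higher and 12 lower in mutant than in wild-type CNS cells, and 10 higher and 10 lower in the mutant rest. In muscle 2 were higher and 0 lower than in the rest. As shares of the list, 14.5% were higher in wild-type CNS cells and 16.1% each way in the mutant rest, near the shares of all features. Of these genes snu13a, whose protein binds the U4 RNA, had 76.7, 64.5 and 46.8 in mutant CNS cells and 169.8, 289 and 218 in wild-type CNS cells (-1.61 ± 0.23 SE on the log2 scale, adjusted p = 2.8e-05). In the rest it had 51.1, 53.8 and 40.4 in the mutant and 268, 254 and 184 in the wild type (-1.95 ± 0.23 SE, adjusted p = 4.59e-06). Its duplicate snu13b was lower too, by -1.06 in CNS cells and -0.96 in the rest. ess2, of the C complex, was higher in both (0.69 ± 0.13 SE, adjusted p = 0.00032 and 0.75 ± 0.13 SE, adjusted p = 0.000192).

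Of 16 genes of snRNP assembly tested, 5 were higher and 0 lower in wild-type CNS cells than in the rest, 3 higher and 4 lower in mutant than in wild-type CNS cells, 3 higher and 3 lower in the mutant rest, and 0 higher and 3 lower in muscle than in its rest. As shares these are 31.2% higher in wild-type CNS cells, 18.8% higher and 25% lower in mutant CNS cells, 18.8% each way in the mutant rest and 18.8% lower in muscle. phax, the adaptor that exports U snRNAs from the nucleus, had 668, 696 and 756 in mutant CNS cells and 372, 374 and 341 in wild-type CNS cells (0.93 ± 0.15 SE on the log2 scale, adjusted p = 7.66e-05). In the rest phax had 591, 596 and 614 in the mutant and 147, 121 and 186 in the wild type (1.90 ± 0.15 SE, adjusted p = 2.96e-08). phax was not called between mutant CNS cells and the mutant rest (0.23), and the interaction of sort and genotype for phax was -0.97 (adjusted p = 0.0125). clns1a, a chaperone of Sm proteins, rose in both fractions (0.50 ± 0.14 SE, adjusted p = 0.00851 in CNS cells and 1.14 ± 0.14 SE, adjusted p = 7.72e-06 in the rest). gemin5, which recognises snRNAs, was higher in both (0.48 and 0.56), but both calls were lost without single arrays (lowest 0.38 and 0.45) and the CNS call with either rescaling. gemin7, of the same SMN complex, fell in both (-0.76 and -0.82), and in the rest it was at -0.53 and still called without replicate 2 of the wild type.

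Of 19 exon junction and export genes tested, 0 were higher and 4 lower in mutant CNS cells, and 0 higher and 2 lower in the mutant rest. 2 were higher and 0 lower in wild-type CNS cells than in the rest. As shares these are 21.1% lower, 10.5% lower and 10.5% higher. rnps1, which joins the exon junction complex, was lower in both mutant fractions, at an average of 353 ± 60.8 in mutant CNS cells and 690.2 ± 79.3 in wild-type CNS cells (SD, n = 3 each; -0.94 ± 0.15 SE, adjusted p = 7.18e-05). In the rest it averaged 365 ± 3.05 in the mutant and 717 ± 89.3 in the wild type (SD, n = 3 each; -0.93 ± 0.15 SE, adjusted p = 0.000108). acin1b, of the same complex as rnps1, was lower in CNS cells (-0.96 ± 0.26 SE, adjusted p = 0.0079). In the rest acin1b had 187, 156 and 119 in the mutant and 199.7, 462 and 183 in the wild type (-0.71 ± 0.26 SE, adjusted p = 0.0413). There the groups overlapped, and the call was lost without replicate 2 of the wild type (-0.31) or replicate 2 or 3 of the mutant.

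The 23 tissue regulators tested had calls in each comparison of sorted cells with their rest. In muscle 6 were higher and 9 lower than in the rest. Between CNS cells and the rest 6 were higher and 5 lower in the wild type, and 4 higher and 2 lower in the mutant. In that mutant comparison 6.49% of all features were higher and 9.03% lower, and the share of regulators lower was near the latter. Between mutant and wild type 3 regulators were higher and 3 lower in CNS cells, and 1 higher and 5 lower in the rest. As shares these are 26.1% higher and 39.1% lower in muscle, 26.1% and 21.7% in wild-type CNS cells, 17.4% and 8.7% in mutant CNS cells against the rest, 13% each way between mutant and wild-type CNS cells, and 4.35% and 21.7% in the mutant rest. rbfox1l, a muscle regulator, had 285, 249 and 328 in muscle and 58.7, 48.5 and 52.7 in the rest (2.12 ± 0.20 SE on the log2 scale, adjusted p = 2.88e-08). The neuronal gene nova2 had 63.1, 89.5 and 53 in mutant CNS cells and 15.9, 18.8 and 20.5 in the mutant rest (1.28 ± 0.17 SE, adjusted p = 1.34e-05). It was higher in mutant than in wild-type CNS cells, where it had 29.2, 30.2 and 23.9 (0.93 ± 0.17 SE, adjusted p = 0.000367), but was not when its probe sets were averaged (0.13). celf2 had 104, 114 and 96.3 in mutant CNS cells and 266, 259.5 and 305 in wild-type CNS cells (-1.28 ± 0.21 SE, adjusted p = 0.000118). The epithelial regulator esrp1 had 115, 82.1 and 74.1 in mutant CNS cells and 38.2, 55.5 and 38.5 in wild-type CNS cells (0.82 ± 0.24 SE, adjusted p = 0.0139), and its interaction of sort and genotype was 1.40 (adjusted p = 0.0316). The call of esrp1 between genotypes was lost without mutant replicate 1 or wild-type replicate 1 or 3, and that of its interaction without most single arrays (1.24 to 1.45). esrp1 and its relative esrp2 moved with the epidermal markers above, whose part in this difference was not tested.

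Where a splicing gene had further probe sets above the filter, these could be set beside the brightest. There were 22 such probe sets for 16 genes. In mutant against wild-type CNS cells, 10 of them belonged to called genes, and 8 of the 10 had the sign of the brightest probe set, 1 was called in the same direction and 1 in the opposite one. In the rest 9 of 9 had the same sign and 3 were called. For wild-type CNS cells against the rest, 4 belonged to called genes, 3 had the same sign and 0 were called. For muscle against its rest these counts were 1, 1 and 0. For muscle against CNS cells they were 6, 5 and 4, and for mutant CNS cells against the mutant rest 1, 1 and 1. For rbm4.1 the second probe set was higher in mutant than in wild-type CNS cells (1.01), and the brightest was not called (-0.21).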

How the data were processed

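Values are the authors' deposited intensity, 1 linear value per probe set for each of 18 Affymetrix arrays, made with MAS5 per the submitters' processing notes. No source used here gives its version, scaling target or detection calls. Arrays have no read depth, and 3 arrays a group limit the precision. Of 15617 probe sets 115 controls were left out. Symbols came from the platform's annotation, updated through RefSeq.

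Values were analysed as log2(intensity + 16), so folds of dim genes are understated. Probe sets above the 40th percentile of their array on at least 3 arrays were kept, and the brightest stood for its gene, giving 9548 features. Of these, 6831 had a gene symbol. The others were probe sets without a single symbol, each counted as a feature of its own. limma 3.58.1 (R 4.3.3) estimated 6 group means from the 18 arrays together (variance trend, 12 residual degrees of freedom, two-sided, Benjamini-Hochberg at 0.05 within each of 8 comparisons). The test was checked on simulated data. An exact permutation test of 3 against 3 cannot give p below 0.1 and was not used. Alternatives were pseudocounts of 1 and 64, no filter, quantile normalization, median centring, mean probe sets, array weights, a replicate block and leaving out each array. They were run on further named genes after the data had been seen. Named genes are up to 8 largest changes each way per comparison, the 2 brightest of each role, further members given by value, and up to 3 genes per further list. Members, lists, roles and duplicated pairs were chosen with earlier results of these data known. Python 3.11.15, pandas 2.3.3, numpy 2.4.6 and matplotlib 3.10.9 handled tables and figures.

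Whether replicate numbers pair samples was read from correlations between deviations from group means. They paired the fractions of the miR-206 line (r = 0.367, 0.372 and 0.203) and of the mutant line (0.104, 0.275 and 0.297), and not those of the wild-type miR-124 line (0.181, 0.003 and -0.086).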

Additional observations from a re-analysis of the deposited data

How the results depend on the processing

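Stability was counted for the largest changes of each comparison and the brightest genes of each role. Of these, 72 changes were past the threshold, and 46 kept their direction and call under every alternative run. Further members given by value, dicer1 and genes of the further lists were not in this count. Several of them lost calls, as given above. Counts of called splicing genes moved by more than 1.5 times as follows. Muscle against rest (4) gave 9 with quantile normalization, 10 with array weights and 7 with the replicate block. Of all features 36.4%, 41.8% and 40.5% were called there. CNS against rest in the wild type (24) gave 42 with arrays centred on their medians, where 38.8% of all features were called. In the mutant (2) it gave 7 with array weights, where all features called rose to 2411 against 1482. The interaction (0) gave 1, lower, without the filter and 1, lower, with the replicate block, where 0.163% and 0.67% of all features were lower. The GFP-negative fractions, miR-206 against miR-124 line (2), gave 1 with a pseudocount of 1, 1 with probe sets averaged and 1 with array weights. They gave 5 after median centring and 7 with the replicate block. In the order given, 4.92%, 6.01%, 3.89%, 6.87% and 8.2% of all features were called. Median centring moved the median of all features to 0.17 in wild-type CNS against rest and 0.06 in muscle against CNS. Leaving out 1 array gave 3 to 6 for muscle against rest, 11 to 28 for wild-type and 2 for mutant CNS against rest, 31 to 37 and 26 to 38 for mutant against wild type in CNS and GFP-negative cells, 0 to 1 for the interaction (1 without replicate 3 of the wild-type rest), 13 to 16 for muscle against CNS, and 0 to 4 between GFP-negative fractions (4 without replicate 2 of the miR-206 rest). In mutant CNS cells hnrnpa0l turned to 0.092 and hnrnpa0b to 0.21 with quantile normalization, and hnrnpa0b to 0.029 with probe sets averaged. The cause was not tested. The replicate block changed no other count by more than 1.5 times, and in lines without pairing it is only a shared number.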
